A study of Mus musculus and Homo sapiens with 22 samples.

Results

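Hmgcs1, Sqle, Srebf1, Srebf2, Insig1, Insig2 and Scap, 7 genes of cholesterol synthesis and its feedback control, were followed through 3 maps of PROX1 binding. The genes were taken by name, and a peak was assigned to a gene when its summit, the position with the best p-value in the peak, lay in the gene body or within 20 kb of it. This gave 58 of 50159 peaks in liver, 21 of 40531 in mouse embryonic fibroblasts (MEFs) and 11 of 14369 in Hep3B cells, together 90 of 105059. The set holds synthesis enzymes and regulators of the SREBP pathway but no lipoprotein receptor, so uptake genes are described from a wider list of 39 genes further on.

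PROX1 is a homeodomain transcription factor of hepatocytes. CUT&RUN maps where a factor sits on chromatin by sequencing the DNA that an antibody-tethered nuclease cuts free, and it was applied here to 22 samples from 6 groups. Liver came from untreated C57BL/6J mice aged 2 to 3 months and was profiled with an antibody against endogenous PROX1 (5 samples) or with IgG (5). MEFs were isolated from C57BL/6N embryos at E13.5, carried the lentiviruses FUW-rtTA and tetO-FLAG-mmProx1, and received 2 µg/ml doxycycline for 2 days before profiling with a FLAG antibody (3) or IgG (3). Hep3B is an established human hepatoma line. It carried a pLIX-Puro-hsPROX1 lentivirus, was selected in 2 µg/ml puromycin for 2 days and was given 2 µg/ml doxycycline for 2 days before profiling with FLAG (3) or IgG (3). Both cell models therefore report a tagged, induced protein, and liver the endogenous one. Whole liver and transduced cultures can hold more than one cell type, and the peak lists hold no expression values against which the labelled tissue or cells could be checked.

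Each antibody group had 1 list of peaks pooled over its samples. No value of a single sample entered, so depth and the spread between replicates were unknown and no difference between lists could be tested. The lists were not normalised to each other: summit −log10 p began at 6.09 in liver, 3.33 in MEFs and 3.93 in Hep3B. Peaks were therefore ranked within their own list, and the percentile of a peak is the percentage of peaks in that list with a lower −log10 p. A promoter peak of a gene had its summit within 1 kb of the start of a protein-coding transcript of that gene. For the promoter peaks of a whole list, the start of any protein-coding gene counted.

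Cells sense cholesterol in the endoplasmic reticulum. SCAP escorts the SREBP precursors, encoded by Srebf1 and Srebf2, to the Golgi, where proteases release their transcription factor domains. When sterols are plentiful, INSIG1 and INSIG2 hold SCAP back. SREBP-2 mainly drives cholesterol synthesis, including Hmgcs1 and Sqle, and SREBP-1c, the main Srebf1 product of liver, mainly drives fatty acid synthesis. Binding of PROX1 at these genes does not tell whether their transcription changed, and no RNA was measured in these libraries.

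All 7 genes had at least 1 peak and at least 1 promoter peak in each of the 3 lists. Among all protein-coding genes, 57.5% had a peak by the same rule in liver, 75.6% in MEFs and 62.6% in Hep3B, and 26.5%, 55.1% and 43.6% had a promoter peak. Of 15711 gene symbols found in both species, 51.1% had a peak in all 3 lists and 21.9% had a promoter peak in all 3. The liver promoter count rested mostly on peaks low in their list. With the 14369 strongest peaks of each list, 1 of the 7 genes, Scap, retained a liver promoter peak, at an internal start. The share of all genes at this cut was not computed. Promoter peaks ranked low over the whole liver list too (median percentile 32.1), so the fall cannot be called particular to these genes.

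The place of the strongest peak differed between liver and the cell models. In liver, 0 of 7 genes had their strongest peak at the promoter, and 12.5% of all genes with a peak did. In MEFs it was at the promoter for 7 of 7, beside 40.6% of genes. In Hep3B it was at the promoter for 6 of 7, beside 51.7%. The exception was SREBF1, whose strongest Hep3B peak lay 3452 bp upstream of the nearest start. Ranking by the area of the peak in place of −log10 p gave the same 0, 7 and 6 genes.

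The 10 liver promoter peaks of these genes were low in their list, with a median percentile of 18.4 and a range of 0.588 to 92.5. The 48 other liver peaks had a median percentile of 45.7. The order was the opposite in MEFs, where 10 promoter peaks had a median of 82.2 and 11 other peaks one of 41.2, and in Hep3B, where 8 promoter peaks had a median of 74.9 and 3 other peaks one of 29.8. The same orders were present over whole lists, with promoter and other medians of 32.1 and 53.0 in liver, 67.4 and 43.5 in MEFs, and 59.1 and 39.3 in Hep3B. Promoter peaks were 17.2% of the liver peaks of the 7 genes, 47.6% of the MEF and 72.7% of the Hep3B peaks. Over whole lists, where the start of any gene counted, they were 14.5%, 32.0% and 58.2%. By that wider rule a MEF peak near Srebf2, at the start of Ccdc134, would also be a promoter peak. It is counted here among the other peaks.

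**Figure D1:**
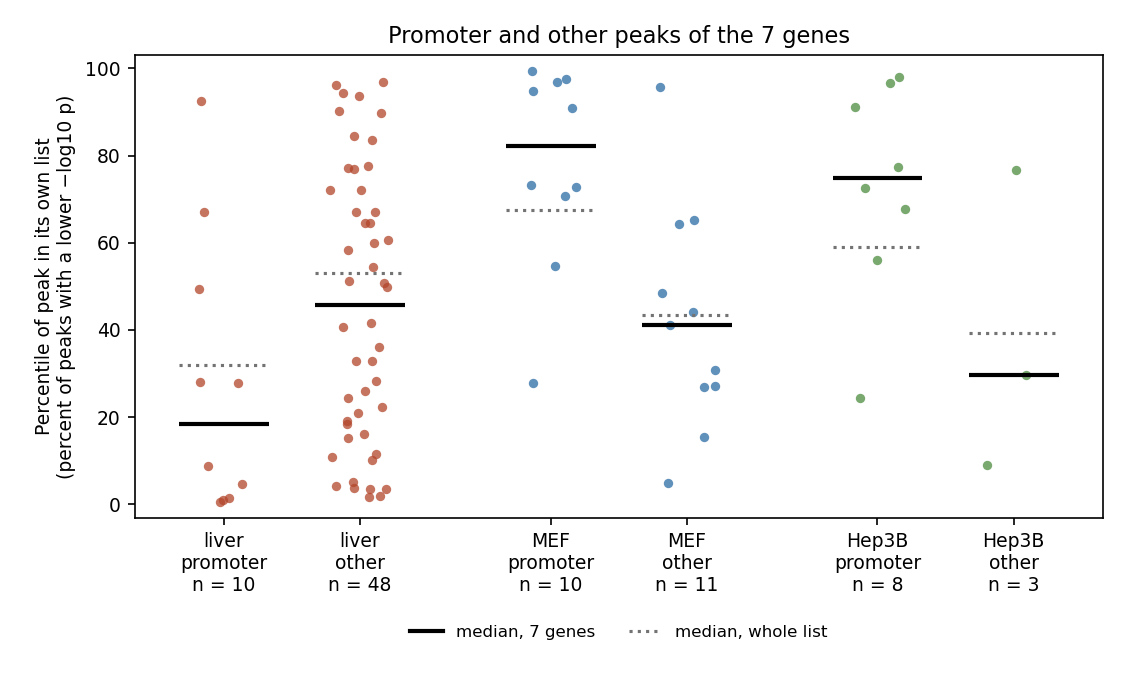
Each point is 1 peak of the 7 genes, placed by its percentile in its own list (y axis, percent of peaks with a lower −log10 p) and split by list and by promoter or other position (x axis). Solid bars are medians over these peaks and dotted bars medians over the whole list. Promoter peaks lie mostly low in liver (median 18.4) and high in MEFs (82.2) and Hep3B (74.9).

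Every gene had more peaks in liver than in MEFs, as did 29.3% of all 21938 mouse genes. A gene of the 7 had a median of 9 liver, 2 MEF and 1 Hep3B peaks, and the medians over all genes were 1, 2 and 1. Srebf1 had the most in each list, with 16, 7 and 5 peaks. With the 14369 strongest peaks of each list, 4 of 7 genes had more liver than MEF peaks, beside 15.7% of all genes. When MEF peaks were held to the area at which the liver list starts, it was 7 of 7, beside 40.2%.

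Liver peaks of these genes spread over a median width of 597 bp, against 504 bp for the list. Of the 58, 30 lay in the gene bodies, 18 upstream and 10 downstream. By annotation, 30 summits were in introns, 15 between genes, 6 in exons of noncoding transcripts, 5 in untranslated exons and 2 in coding exons. The nearest coding start belonged to another gene for 5 liver summits, 3 of them at Tom1l2 beside Srebf1. It did so for 3 MEF summits and for 0 of 11 in Hep3B.

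**Figure D2:**
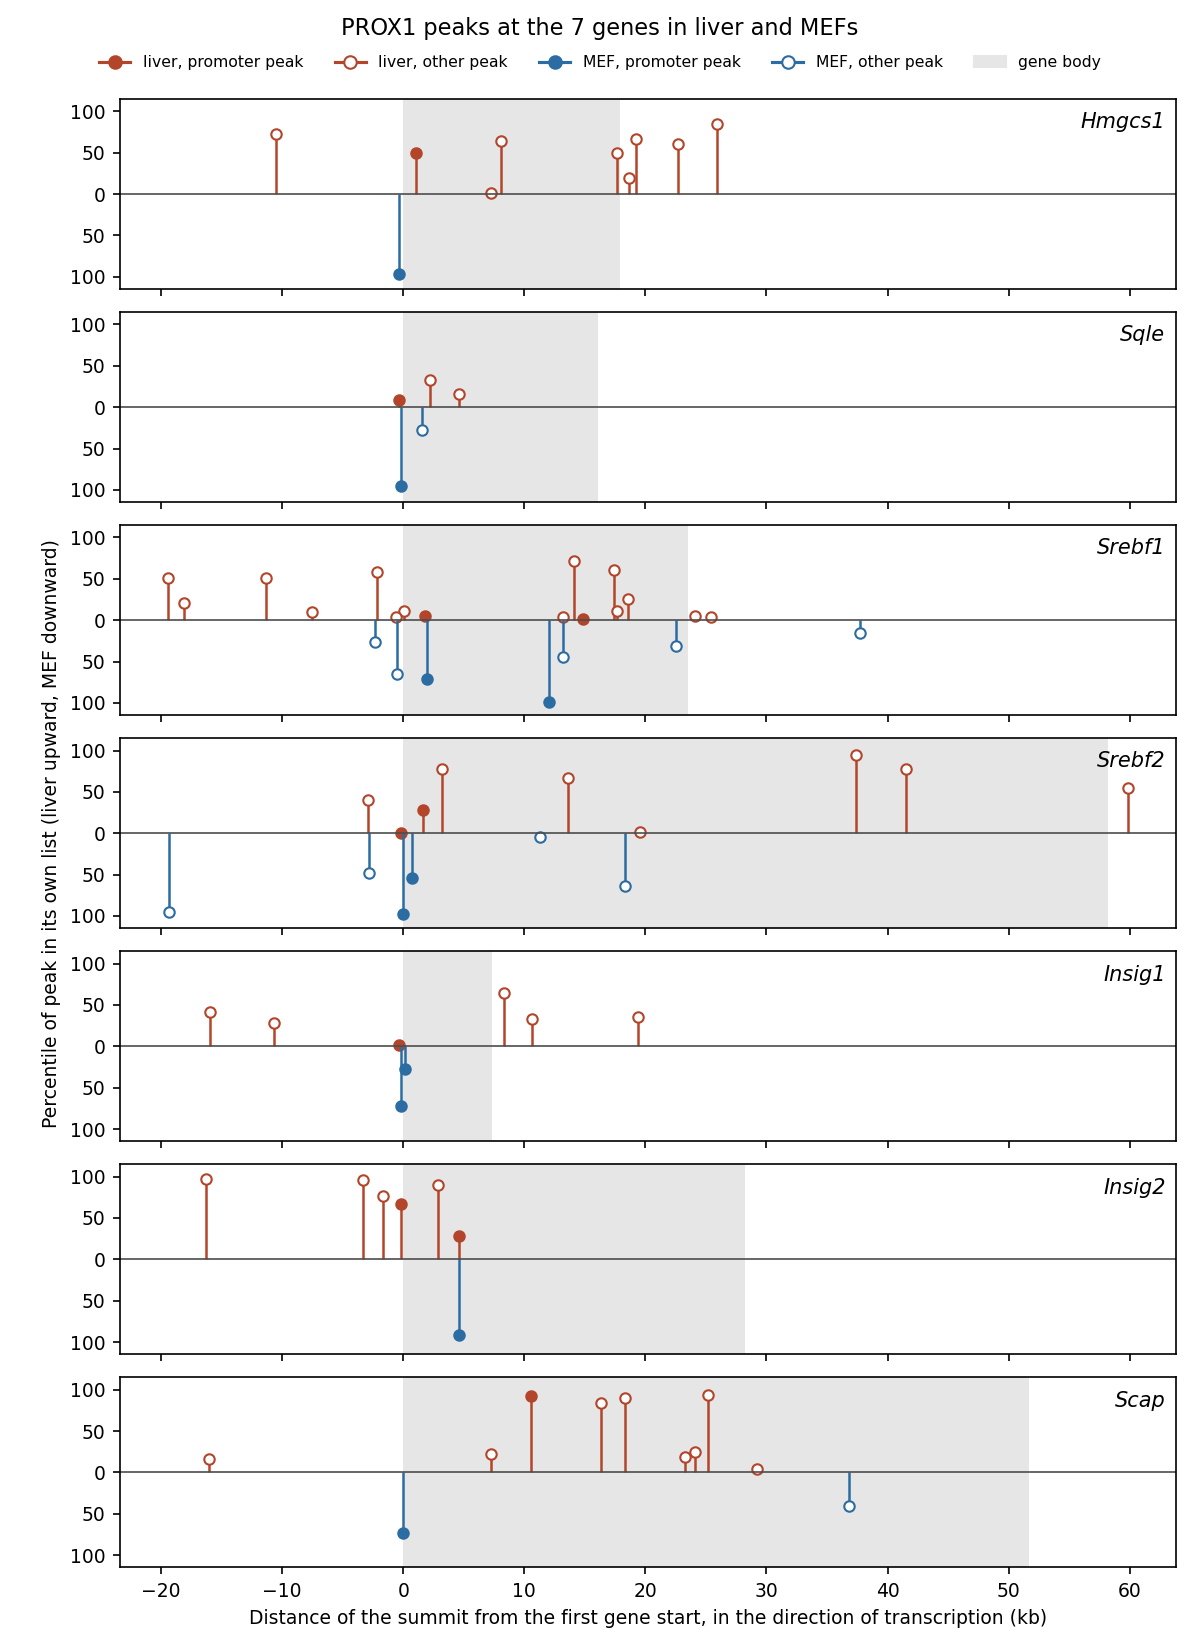
Each stem is 1 peak at the distance of its summit from the first gene start in kb (x axis), with its percentile in the liver list drawn upward and in the MEF list downward (y axis). Filled circles are promoter peaks, open circles other peaks, and grey marks the gene body. Liver peaks spread along the genes and their flanks, and the MEF stems above percentile 70 stand at starts, except 1 upstream of Srebf2 (95.6).

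Hmgcs1 (chr13:119690379-119708260, mm10, plus strand) encodes the cytosolic HMG-CoA synthase, which makes the precursor of mevalonate. In MEFs it had a single peak, chr13:119689900-119691134, with the summit 318 bp upstream of the nearest start and a −log10 p of 9.20 (percentile 97.0). In Hep3B it again had 1 peak, with the summit 62 bp upstream of the start and a −log10 p of 8.96 (percentile 97.9). The Hep3B peak had the highest percentile among the 7 genes in that list.

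In liver, Hmgcs1 had 9 peaks, and the strongest, chr13:119715994-119716554, was downstream of the gene in an intron of Nim1k (−log10 p 16.8, percentile 84.5). The only liver promoter peak had its summit 953 bp inside the gene (percentile 49.3) and overlapped the edge of the MEF peak. The RefSeq promoter (GRCm38.p6) and the strongest liver summit are shown because the sterol regulatory element core and the GC boxes of the promoter have no match at the liver summit, whose NF-Y box and nuclear receptor motif both also occur in the promoter. Capitals mark matches on either strand to the sterol regulatory element core TCACNCCAC, the NF-Y box CCAAT, the GC box GGGCGG and the nuclear receptor motif AGGTCA.
Hmgcs1 promoter, chr13:119690101-119690350, plus strand: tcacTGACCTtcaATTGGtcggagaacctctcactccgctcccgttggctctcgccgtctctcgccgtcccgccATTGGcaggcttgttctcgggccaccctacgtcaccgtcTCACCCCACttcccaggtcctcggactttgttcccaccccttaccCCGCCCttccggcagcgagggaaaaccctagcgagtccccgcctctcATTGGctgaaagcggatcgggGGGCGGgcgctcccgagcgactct
Hmgcs1 strongest liver summit, chr13:119716193-119716393, plus strand: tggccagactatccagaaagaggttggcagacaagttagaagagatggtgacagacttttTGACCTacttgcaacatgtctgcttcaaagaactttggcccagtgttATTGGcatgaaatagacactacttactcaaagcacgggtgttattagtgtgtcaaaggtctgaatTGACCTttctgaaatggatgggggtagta

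The sterol regulatory element core lay 137 to 129 bases before the RefSeq start of Hmgcs1, inside the MEF peak and 157 bp from its summit. It lay outside the liver peaks, 1199 bp from the nearest liver summit. Of 11 RefSeq promoters found for 6 of the 7 genes, it was the only one with this core, which 1.24% of 32851 mouse promoters hold. The window of 100 bases on either side of the human HMGCS1 summit in Hep3B also held 1 match, as did 0.689% of windows in that list. No window of the same size at a liver or MEF summit of the 7 genes did, beside 0.662% and 0.814% of those lists.

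Sqle (chr15:59315077-59331192, mm10, plus strand) encodes squalene epoxidase, the first oxygen-dependent enzyme of sterol synthesis. Its MEF promoter peak, chr15:59314408-59315655, had a summit 193 bp upstream of the start and a −log10 p of 8.74 (percentile 94.8). In Hep3B the only peak of SQLE had its summit 273 bp upstream of the start and a −log10 p of 8.53 (percentile 91.2). Liver peaks of Sqle were few and low, 3 in all. The strongest, 2143 bp inside the gene, had a −log10 p of 10.7 (percentile 33.0), the lowest of the strongest liver peaks of the 7 genes. The promoter peak, which overlapped that of MEFs, had a −log10 p of 8.77 (percentile 8.86). Ranked by area, another Sqle peak, 4539 bp inside the gene, was the strongest, with an area percentile of 50.5.

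Srebf1 (chr11:60199089-60222581, mm10, minus strand) is transcribed from separate starts that give SREBP-1a, from the upstream start, and SREBP-1c, from a downstream one with its own first exon. In MEFs both had a peak. At the upstream coding start the summit lay 13 bp away with a −log10 p of 6.84 (percentile 70.6). At the downstream start, 60210465, the summit of chr11:60210244-60211560 lay 87 bp away with a −log10 p of 10.4 (percentile 99.5). By −log10 p that was the highest MEF percentile of any peak of the 7 genes.

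In liver the peaks at or near the same starts ranked low in their own list. The peak at the upstream start had its summit 156 bp away and a −log10 p of 8.23 (percentile 4.62). No liver summit lay within 1 kb of the downstream start. The nearest, 1076 bp inside, had a −log10 p of 8.05 (percentile 3.52). The liver list starts at a higher −log10 p than that of MEFs, so these percentiles do not compare the amount of binding. The strongest of the 16 liver peaks, chr11:60208126-60209061, lay in an intron 1264 bp before the most internal coding start (−log10 p 14.7, percentile 72.1). In Hep3B, SREBF1 had a summit 100 bp upstream of its first start (percentile 56.1) and one 282 bp upstream of the second (percentile 72.5), and its strongest peak, chr17:17839354-17841131 in hg38, had a −log10 p of 7.50 (percentile 76.7). The promoters of both mouse starts are shown because the MEF summits lie in or next to them. Capitals mark GC boxes and NF-Y boxes.
Srebf1 upstream promoter, chr11:60220628-60220877, minus strand: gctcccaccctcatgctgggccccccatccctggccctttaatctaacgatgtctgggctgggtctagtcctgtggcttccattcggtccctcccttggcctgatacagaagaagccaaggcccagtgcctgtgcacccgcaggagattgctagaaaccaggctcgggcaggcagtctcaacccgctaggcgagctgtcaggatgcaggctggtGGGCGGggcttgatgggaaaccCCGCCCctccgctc
Srebf1 downstream promoter, chr11:60210472-60210721, minus strand: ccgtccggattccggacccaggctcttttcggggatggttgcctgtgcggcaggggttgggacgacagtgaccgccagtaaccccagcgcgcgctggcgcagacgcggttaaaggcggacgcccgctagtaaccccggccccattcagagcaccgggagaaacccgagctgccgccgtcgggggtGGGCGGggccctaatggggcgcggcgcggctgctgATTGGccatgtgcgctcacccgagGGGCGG

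Srebf2 (chr15:82147181-82205379, mm10, plus strand) encodes SREBP-2. In MEFs its strongest peak, chr15:82146027-82147376, had a summit 4 bp from the first start and a −log10 p of 9.41 (percentile 97.6). A MEF peak of similar rank 19314 bp upstream (percentile 95.6) had its summit 55 bp from the start of Ccdc134, so it is a promoter peak of that gene. In Hep3B, SREBF2 had 1 peak, 231 bp upstream of the start (−log10 p 7.53, percentile 77.3). Liver had 2 promoter peaks at Srebf2, both overlapping a MEF peak. The one 158 bp upstream of the first start had a percentile of 0.588, the lowest of the 58 liver peaks, and the one 834 bp inside the second start had a percentile of 28.0.

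The strongest of 9 liver peaks at Srebf2 was 2195 bp wide, chr15:82183184-82185378, in an intron (−log10 p 19.7, percentile 94.3). Mir33, the cholesterol-regulating microRNA within a later intron of Srebf2, lay 8877 bp from the nearest liver summit and 32687 bp from the nearest MEF summit. The intronic summit is shown as the main liver site of this gene. Capitals mark the nuclear receptor motif.
Srebf2 strongest liver summit, chr15:82184480-82184680, plus strand: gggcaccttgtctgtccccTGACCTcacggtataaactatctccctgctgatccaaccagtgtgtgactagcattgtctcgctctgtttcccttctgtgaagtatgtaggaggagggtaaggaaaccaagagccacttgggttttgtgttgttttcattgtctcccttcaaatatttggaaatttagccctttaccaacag

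Scap (chr9:110333288-110384950, mm10, plus strand) encodes the sterol-sensing escort of the SREBPs. Its liver and MEF promoter peaks were at different starts. In MEFs the summit of chr9:110333011-110333941 lay 11 bp before the main start, used by 4 annotated coding transcripts (−log10 p 6.98, percentile 73.3). The nearest liver summit was 6903 bp from that cluster of starts. The liver promoter peak, chr9:110343609-110344323, had its summit 335 bp before an internal start annotated for 1 coding transcript (−log10 p 18.9, percentile 92.5), and the nearest MEF summit was 10922 bp from that start. None of the Scap peaks of liver and MEFs overlapped.

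The strongest liver peak of Scap was in an intron, chr9:110357932-110358866 (−log10 p 19.4, percentile 93.7). SCAP in Hep3B had a single peak, 47 bp downstream of its second coding start cluster and 1232 bp from the first gene start, with a −log10 p of 5.64, a percentile of 24.4 and, by area, a percentile of 5.17. It was the lowest strongest peak of the 7 genes in that list. The intronic liver summit is shown for contrast with those above: no motif searched matched in it, so it has no capitals.
Scap strongest liver summit, chr9:110358355-110358555, plus strand: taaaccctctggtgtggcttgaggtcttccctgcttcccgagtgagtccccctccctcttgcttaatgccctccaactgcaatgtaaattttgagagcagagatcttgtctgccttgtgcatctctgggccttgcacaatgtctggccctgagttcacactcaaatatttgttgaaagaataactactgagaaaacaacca

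Insig1 (chr5:28071363-28078662, mm10, plus strand) encodes an endoplasmic reticulum protein that retains SCAP, and is itself an SREBP target. In MEFs both of its peaks were at the start. The stronger had its summit 163 bp upstream (−log10 p 6.95, percentile 72.7) and the other 175 bp inside (percentile 27.9). In Hep3B, INSIG1 had 1 peak with the summit 47 bp upstream (−log10 p 7.08, percentile 67.8, or 38.6 by area). The liver promoter peak, 385 bp upstream, had a −log10 p of 7.37 and a percentile of 0.983. The strongest liver peak was downstream of the gene, 8362 bp from the start (−log10 p 13.7, percentile 64.5). By area the strongest Insig1 peaks had percentiles of 91.5 in liver and 85.6 in MEFs.

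Insig2 (chr1:121304353-121332589, mm10, minus strand), a relative of Insig1 with the same SCAP-retaining role, has in mouse liver an additional transcript from a start of its own. Liver peaks stood at 2 of the annotated coding start clusters. At the upstream start, 121332589, annotated for 2 coding transcripts, a liver summit lay 188 bp away (−log10 p 14.0, percentile 67.1), and the nearest MEF summit was 4579 bp away. At the downstream cluster, with 8 coding transcripts, a liver summit lay 68 bp inside (percentile 27.9) and the only MEF summit 53 bp inside (−log10 p 8.21, percentile 91.0). INSIG2 in Hep3B had 1 peak, 125 bp upstream of the start (−log10 p 8.81, percentile 96.7, or 76.2 by area).

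The 3 strongest liver peaks of Insig2 were chr1:121348425-121351348 (2924 bp wide, −log10 p 21.2, percentile 96.9), chr1:121335573-121336770 (−log10 p 20.7, percentile 96.2) and chr1:121329197-121331570 (−log10 p 18.1, percentile 89.8). The first lay 16318 bp upstream of the gene and had the highest percentile of the 58 liver peaks. None of the 3 overlapped a MEF peak. The upstream promoter and the strongest liver summit are shown as sites with a liver and no MEF peak. Capitals mark NF-Y boxes.
Insig2 upstream promoter, chr1:121332590-121332839, minus strand: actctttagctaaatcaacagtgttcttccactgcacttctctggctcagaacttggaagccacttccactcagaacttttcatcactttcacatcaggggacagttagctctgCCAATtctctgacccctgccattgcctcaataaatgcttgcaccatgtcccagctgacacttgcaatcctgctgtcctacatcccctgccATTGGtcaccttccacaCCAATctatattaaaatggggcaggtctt
Insig2 strongest liver summit, chr1:121348807-121349007, plus strand: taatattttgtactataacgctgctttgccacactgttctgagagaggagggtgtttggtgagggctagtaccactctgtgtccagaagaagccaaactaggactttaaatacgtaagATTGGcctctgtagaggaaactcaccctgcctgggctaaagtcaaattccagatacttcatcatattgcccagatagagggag

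**Figure D3:**
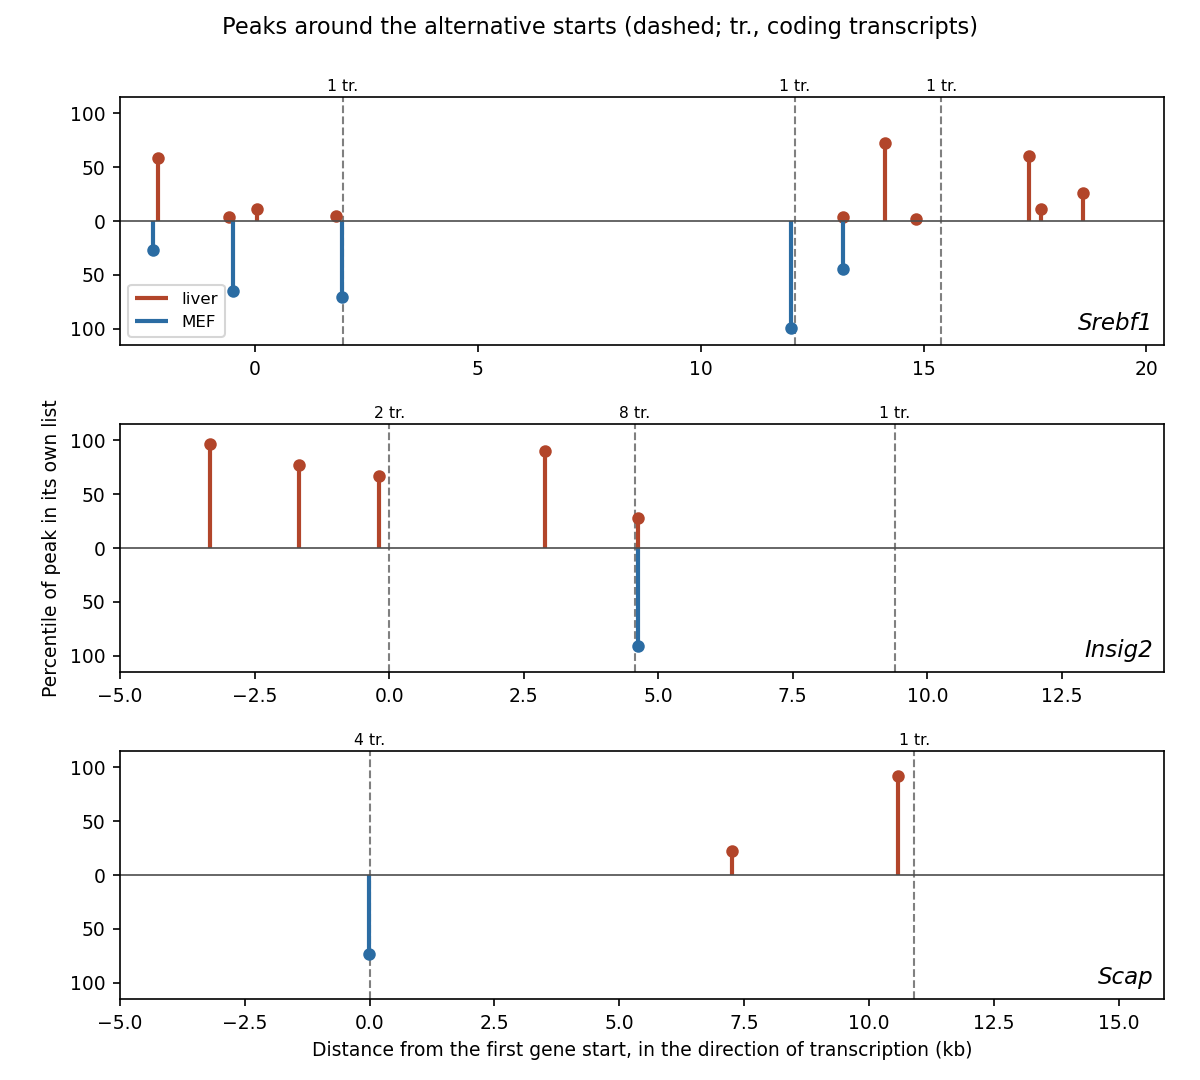
Stems are peaks of Srebf1, Insig2 and Scap at the distance of their summit from the first gene start in kb (x axis), with the percentile in the liver list upward and in the MEF list downward (y axis). Dashed lines are the starts of coding transcripts, with the number of transcripts (tr.) above. The MEF summit at the downstream Srebf1 start (99.5) has no liver summit within 1 kb, and the liver summits at the upstream Insig2 start (67.1) and the internal Scap start (92.5) have no MEF summit near them.

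Over all 14 coding start clusters of the 7 genes in mouse, 10 had a liver summit within 1 kb and 9 had a MEF summit. The share over the start clusters of all genes was not computed, so it is not known whether these counts are unusual. Of the liver peaks of these genes, 12 of 58 (20.7%) overlapped a MEF peak by at least 1 bp, beside 18.9% of the liver list, and of the MEF peaks 11 of 21 (52.4%) overlapped a liver peak, beside 21.4% of the MEF list. Among their liver promoter peaks it was 7 of 10, beside 67.6% of all liver promoter peaks, and among the other liver peaks 5 of 48 (10.4%), beside 10.7%. Among their MEF promoter peaks it was also 7 of 10, beside 35.7% of all MEF promoter peaks, and among the other MEF peaks 4 of 11 (36.4%), beside 14.7%. When summits had to lie within 100 bp of each other, 4 liver peaks and 4 MEF peaks remained shared. The whole-list shares under this rule were not computed, so the fall cannot be called particular to these genes.

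By −log10 p the strongest peaks ordered the genes differently in each list. In liver the order of percentiles was Insig2 (96.9), Srebf2 (94.3), Scap (93.7), Hmgcs1 (84.5), Srebf1 (72.1), Insig1 (64.5) and Sqle (33.0). In MEFs it was Srebf1 (99.5), Srebf2 (97.6), Hmgcs1 (97.0), Sqle (94.8), Insig2 (91.0), Scap (73.3) and Insig1 (72.7). In Hep3B it was HMGCS1 (97.9), INSIG2 (96.7), SQLE (91.2), SREBF2 (77.3), SREBF1 (76.7), INSIG1 (67.8) and SCAP (24.4). These orders changed when peaks were ranked by area, which moved 20 of the 21 percentiles by more than their counting interval. By area, Insig1 (91.5) passed Scap (90.4) in liver, Hmgcs1 (98.3) and Sqle (96.4) passed Srebf1 (93.8) in MEFs, and SREBF1 (94.6) passed INSIG2 (76.2) in Hep3B. Without replicate values it could not be said which neighbours in an order differ.

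**Figure D4:**
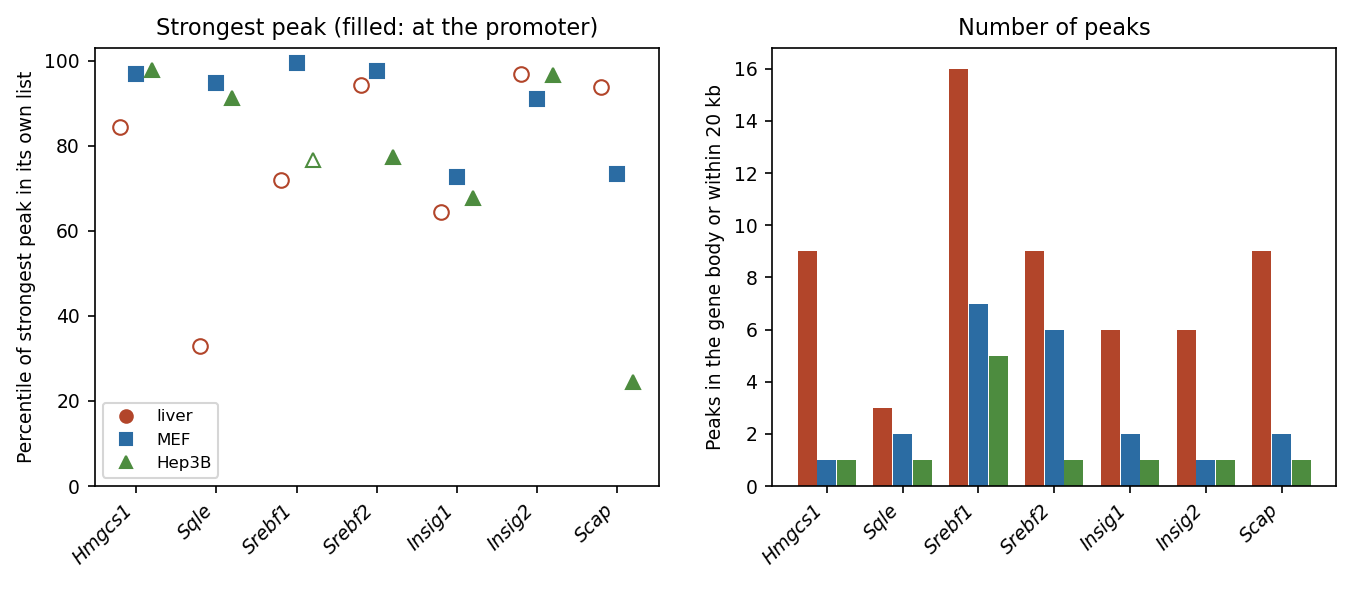
The left plot gives the percentile of the strongest peak of each gene (y axis) in liver, MEFs and Hep3B, filled where that peak is at the promoter. The right plot gives the number of peaks in the gene body or within 20 kb. Liver symbols are open for all 7 genes, MEF symbols are filled for all 7, and liver bars are the tallest for every gene.

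Base composition at the summits also varied with the list. In the windows of 100 bases on either side of the summit, the 7 genes had a median GC content of 48.8% (liver), 65.2% (MEFs) and 68.2% (Hep3B), and 47.3%, 52.7% and 61.7% over the lists. The GC box GGGCGG was in 6 of 58 liver windows (10.3%; list 8.50%), 9 of 21 MEF windows (42.9%; list 23.9%) and 5 of 11 Hep3B windows (45.5%; list 46.4%). The NF-Y box CCAAT was in 18 liver windows (31.0%; list 26.7%), 10 MEF windows (47.6%; list 28.1%) and 2 Hep3B windows (18.2%; list 29.4%).

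The nuclear receptor motif AGGTCA, read on either strand as all motifs here, was in 16 liver windows (27.6%; list 26.0%), 15 of them away from promoters, and in 4 MEF windows (19.0%; list 11.3%). ATCGAT, a short palindrome, was in 3 liver windows (5.17%; list 2.05%) and 1 MEF window (4.76%; list 0.656%). The PROX1 consensus of 12 letters, allowing 2 mismatches, was in 3 liver windows (5.17%; list 4.20%), 0 MEF windows (list 2.95%) and 0 Hep3B windows (list 3.00%). The E-box CACGTG was in 0 liver windows (list 3.27%), 2 MEF windows (list 4.75%) and 1 Hep3B window (list 6.03%). Of the windows with a GC box, 3 of 6 in liver, 7 of 9 in MEFs and 5 of 5 in Hep3B were at promoters. The counts per list are small, and a match is a description of the letters and not of a bound factor.

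The 11 RefSeq promoters (250 bases before to 50 after the start) are not all separate sequences, since those of Scap overlap and share a GC box. Of the 11, 9 held a GC box and 6 an NF-Y box, beside 35.7% and 37.4% of all mouse promoters. Counted once by position, 21 of 21 GC boxes in them lay inside a MEF peak and 10 inside a liver peak. Of 11 NF-Y boxes, 8 lay inside a MEF peak and 4 inside a liver peak. The matching shares over the boxes of all mouse promoters were not computed. Every gene of the set had a promoter peak in MEFs and in liver, and many boxes lay together in the same peak. The box counts are therefore not independent and cannot be called particular to these genes. In the Insig1 promoter an E-box and an AGGTCA match overlapped, 101 to 96 and 105 to 100 bases before the start. The PROX1 consensus matched in 1 of the 11 promoters, beside 6.10% of all mouse promoters. This match, in a promoter of Srebf1, lay 60 to 49 bases before the start. It was inside a MEF peak, 424 bp from the nearest MEF summit and so outside the summit window, and in no liver peak.

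The wider list held 39 genes: 18 other enzymes of sterol synthesis, 6 genes of SREBP processing and sterol-regulated protein degradation, and 15 of uptake, transport and storage. In liver 32 (82.1%) had a peak and 22 (56.4%) a promoter peak, in MEFs 38 (97.4%) and 34 (87.2%), and in Hep3B 34 (87.2%) and 30 (76.9%). The shares over all genes were 57.5% and 26.5%, 75.6% and 55.1%, and 62.6% and 43.6%. The strongest peak was at the promoter for 4 of the 32 in liver, 25 of the 38 in MEFs and 25 of the 34 in Hep3B, beside 12.5%, 40.6% and 51.7% of all genes with a peak. More liver than MEF peaks were found for 23 of 39, beside 29.3% of all genes, and 16 had a promoter peak in all 3 lists, beside 21.9%.

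All 18 synthesis enzymes had a promoter peak in MEFs and in Hep3B, and 10 did in liver (all genes 55.1%, 43.6% and 26.5%). Uptake, transport and storage genes had promoter peaks in 9 of 15 in liver, 11 in MEFs and 8 in Hep3B. Of the 6 processing and degradation genes, 3, 5 and 4 did. Mbtps2, which encodes the site-2 protease that releases SREBPs, was the only listed gene with no peak in any list.

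The highest −log10 p of the wider list in liver was at Faf2 (25.4), which encodes a factor that helps extract proteins for degradation from the endoplasmic reticulum. It was followed by Scarb1 (23.8), which encodes the receptor SR-BI for high-density lipoprotein, and Acat2 (23.4), which makes acetoacetyl-CoA for HMGCS1. In MEFs the order was Npc2 (11.6), which carries cholesterol out of lysosomes, Lss (11.1), the lanosterol synthase, and Mylip (10.6), a ubiquitin ligase for lipoprotein receptors. In Hep3B it was ACAT2 (8.83), NPC2 (8.63) and PMVK (8.56), the phosphomevalonate kinase. The named peaks of Faf2, Scarb1 and Acat2 in liver and of ACAT2 in Hep3B were not at the promoter, and the others were. Whether another gene lay nearer to these summits was not determined.

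By the percentiles of the strongest peak in the 3 lists, the listed gene nearest to Srebf2 was Lipa (largest difference 3.76 points) and the nearest to Srebf1 was Mvk (4.30). Insig2 was nearest to Rnf139 (5.23) and Hmgcs1 to Lss (12.5). Insig1 (18.3) and Sqle (23.4) both had Cyp51 as their nearest gene.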

How the data were processed

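CUT&RUN was done in 22 samples of 6 groups taken from the labels. Per the methods, the authors trimmed paired reads with Trim Galore 0.6.6, aligned them to mm10 or hg38 with Bowtie 2 (2.4.2) and called 1 consensus peak list per antibody group with Genrich 0.6.1 at a lenient q-value limit. The authors describe binding sites as identified in comparison with IgG, but no control file appears in the stated command, and the step at which IgG was used is not given in the sources used here. Lists per sample and IgG lists were not used here. The deposited signal is the area of a peak above the caller's significance level, and areas start at 500 in liver and 200 in the other lists. The deposited −log10 p, used for ranking, and the deposited −log10 q, used only as an alternative threshold, belong to the summit position. The deposited summit offset places the summit from the peak start.

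Summits were assigned to GENCODE M21 or GENCODE 44 genes. Backgrounds used 21938 mouse and 20033 human protein-coding genes. The window limit of 20 kb lay between a liver peak of Srebf1 at 19421 bp (−log10 p 12.2) and one of Insig1 at 20378 bp (11.7), a MEF peak of Srebf2 at 19314 bp (8.89) and one of Srebf1 at 20401 bp (5.96), and Hep3B peaks of SREBF1 at 3452 bp (7.50) and 23322 bp (5.64). Starts within 500 bp of each other formed 1 cluster. Promoters came from RefSeq (GRCm38.p6), which gave 11 for 6 of the 7 genes. Sequences were read with pysam 0.24.0. The PROX1 consensus was written from general knowledge. Functions were tested on simulated data. All values were descriptive, with no test.

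The members, the wider list and the measures were chosen with earlier results of these data known. Named genes were the 7 members, the 3 strongest genes of the wider list per peak list, genes of that list with no peak, and the gene of that list nearest to each member, which for Scap is not reported here.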

Additional observations from a re-analysis of the deposited data

How the results depend on the processing

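Of 92 counts recomputed under other settings, 78 stayed within 1.5 times the reported count. The 78 include counts that could not change. The area floor of liver removes nothing from the liver list, and the 14369 strongest Hep3B peaks are that whole list. Every liver peak of the 7 genes also passed the q-value limits, and every MEF and Hep3B peak of these genes passed the looser limit. Such counts say nothing about how stable a result is. With gene bodies alone, peaks fell to 30 in liver, 12 in MEFs and 4 in Hep3B, and 2 of the 7 genes had a Hep3B peak. Within 50 kb there were 37 MEF and 17 Hep3B peaks. With the 14369 strongest peaks of each list, liver kept 14 peaks and 1 gene with a promoter peak, MEFs kept 10 peaks, and 4 genes had more liver than MEF peaks. At the area floor of liver, 13 MEF and 6 Hep3B peaks were left. With summits within 100 bp, 4 liver and 4 MEF peaks were shared. These settings shrink or widen the peaks counted. Among them, shares over all genes are given only for the comparison of liver and MEF peak numbers. The settings for the number of liver and MEF peaks per gene, and for the strongest peak by area, were added after seeing the data. Of 63 percentiles recomputed, 42 stayed within their counting interval and 21 moved by more, 20 of them with ranking by area. The window of 10 kb and the use of only peaks nearest the gene's own start mostly kept the same strongest peak. Its percentile then could not move.

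The lists are pooled, so leaving out a replicate could not be done, and a call or its strength cannot be set against replicate spread. No paired analysis was possible because each group gave 1 pooled list. Liver and cell models differ in antibody, tissue, PROX1 level and list threshold, which cannot be told apart.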
